A study of Mus musculus with 2 samples.

Results

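The IgG plasma cells of the spleen were described in mice with an LCMV-cl13 infection, a lymphocytic choriomeningitis virus that the host does not clear quickly. Members were picked by their measured counts: a barcode entered with at least 5 UMIs of *Mzb1*, at least 10 UMIs of *Jchain*, no UMI of *Cd3e* or *Lyz2*, and a summed IgG count (*Ighg1*, *Ighg2b*, *Ighg2c* and *Ighg3*) above that of *Ighm* and above that of *Igha*. A UMI, or unique molecular identifier, marks 1 captured transcript molecule, and a barcode marks 1 droplet, which usually holds a cell. This rule found 1180 IgG plasma cells among 23397 barcodes, 628 of 14821 from PEP-WT mice and 552 of 8576 from PEP-619WW mice.

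Both groups were C57BL/6 mice infected intravenously and sampled at day 8. PEP-WT mice carried the unchanged *Ptpn22* gene, and PEP-619WW mice were homozygous for a CRISPR/Cas9 knock-in that changes arginine to tryptophan in PEP, the tyrosine phosphatase that *Ptpn22* encodes, in every cell of the body. The spleens of 4 to 5 age-matched and sex-matched mice (6 to 12 weeks old in the study) were pooled by genotype and sorted for live CD45+ cells before 3' single-cell RNA sequencing, so each genotype is 1 library, and the mice of a pool cannot be told apart. Of 2 deposited runs the first was used here, whereas the cell numbers in the study's methods (9539 and 11029) match the second. The design described there is taken to hold for the first. The sample labels name liver, a human T cell line and tumor-infiltrating cells, whereas the protocol in the same labels and the study describe splenocytes of infected mice.

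With 1 library per genotype there is no replicate error, no test between genotypes was made, and a difference between the libraries cannot be told apart from one between the pools, the sorts or the captures. The brackets after a share hold its exact 95% binomial interval by the Clopper-Pearson method, those after a difference of shares a Newcombe interval, and those after a ratio of sums an interval that treats both sums as Poisson; none of them covers more than counting error. A 3' count cannot show the coding change, so the *Ptpn22* level in a library does not check its label. The genotypes also shared 39 barcodes by sequence, none of them a member in both libraries.

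Plasma cells are the antibody-secreting end stage of the B cell lineage. They carry a large endoplasmic reticulum in which heavy and light chains are folded and joined, with *Xbp1* and *Prdm1* as the main regulators and *Mzb1* and *Jchain* among the abundant products. IgG comes in subclasses that differ in the constant part of the heavy chain: after class switching, a cell reads its rearranged V region together with the constant gene of 1 subclass. C57BL/6 mice carry *Ighg2c* in place of the *Ighg2a* gene of other strains, and this subclass dominates many antiviral responses under the influence of interferon gamma and T-bet.

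The hinge, the short stretch that links the antigen-binding arms to the stem of the antibody, is encoded by its own exon and is where the subclasses differ most plainly. It is shown here because the subclass of each member rests on telling these 4 genes apart. The 4 constant genes lie on the minus strand of chromosome 12 of the mm10 build (*Ighg1* at 113325240 to 113330523, *Ighg2b* at 113302965 to 113307933, *Ighg2c* at 113285325 to 113288932 and *Ighg3* at 113356224 to 113361232), and the hinge is exon 2 in the transcript used for each. Capitals mark the in-frame cysteine codons, and cysteines of the hinge form bonds between the chains of an antibody.
Ighg1 hinge, chr12:113329844-113329882, minus strand: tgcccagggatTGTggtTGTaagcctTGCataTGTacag
Ighg2b hinge, chr12:113307261-113307326, minus strand: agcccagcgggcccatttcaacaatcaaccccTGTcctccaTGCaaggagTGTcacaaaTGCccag
Ighg2c hinge, chr12:113288263-113288325, minus strand: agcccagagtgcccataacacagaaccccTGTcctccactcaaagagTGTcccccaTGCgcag
Ighg3 hinge, chr12:113360529-113360576, minus strand: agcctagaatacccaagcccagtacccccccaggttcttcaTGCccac
The hinge exons were 39, 66, 63 and 48 bases long and held 4, 4, 3 and 1 cysteine codons in this order. Of the 987 to 1025 windows of 90 bases, the length of the read, in each secreted transcript, 0 were shared between any of the 4 genes, so a full read without errors fits 1 subclass.

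The V exons of the receptors held by the most members are shown for the same reason: heavy chain *Ighv9-3* with kappa chain *Igkv12-46*, and *Ighv1-82* with *Igkv12-44*, were the most frequent chain pairs in both libraries. Capitals mark the last in-frame cysteine codon, after which the junction with the J segment begins.
Ighv9-3, chr12:114140692-114140988, minus strand: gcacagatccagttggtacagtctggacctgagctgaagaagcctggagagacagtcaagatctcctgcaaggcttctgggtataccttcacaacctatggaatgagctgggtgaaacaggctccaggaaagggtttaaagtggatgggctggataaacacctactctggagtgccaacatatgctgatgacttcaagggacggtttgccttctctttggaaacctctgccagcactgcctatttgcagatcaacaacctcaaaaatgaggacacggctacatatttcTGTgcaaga
Igkv12-46, chr6:69764523-69764820, minus strand: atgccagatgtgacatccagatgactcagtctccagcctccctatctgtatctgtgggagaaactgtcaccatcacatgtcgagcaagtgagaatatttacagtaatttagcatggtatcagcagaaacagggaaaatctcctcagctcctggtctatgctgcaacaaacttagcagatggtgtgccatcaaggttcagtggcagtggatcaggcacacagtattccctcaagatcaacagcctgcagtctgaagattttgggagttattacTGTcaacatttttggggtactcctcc
Ighv1-82, chr12:115952538-115952834, minus strand: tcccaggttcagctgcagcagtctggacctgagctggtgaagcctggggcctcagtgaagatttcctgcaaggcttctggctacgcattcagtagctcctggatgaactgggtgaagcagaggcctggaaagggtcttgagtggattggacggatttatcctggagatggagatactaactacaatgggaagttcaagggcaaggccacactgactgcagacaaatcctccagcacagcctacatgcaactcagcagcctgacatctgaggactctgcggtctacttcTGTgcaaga
Igkv12-44, chr6:69814631-69814928, minus strand: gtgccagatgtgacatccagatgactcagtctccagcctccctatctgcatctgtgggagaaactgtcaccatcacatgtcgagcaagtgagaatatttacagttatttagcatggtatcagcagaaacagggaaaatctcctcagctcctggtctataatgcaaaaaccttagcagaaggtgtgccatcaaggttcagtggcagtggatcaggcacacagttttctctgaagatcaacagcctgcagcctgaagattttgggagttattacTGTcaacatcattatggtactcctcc
The kappa exons are 282 of 298 bases identical (94.6%), so counts of *Igkv12-46* and *Igkv12-44*, and of other near-identical V and Iglc genes, are uncertain between relatives.

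IgG plasma cells took a larger share of the PEP-619WW library than of the PEP-WT library. PEP-WT mice had 4.24% of such cells (3.92 to 4.57). PEP-619WW mice had 6.44% (5.93 to 6.98), and the gap was 2.20 percentage points (1.60 to 2.82). IgM plasma cells, which met the same conditions with *Ighm* above IgG and *Igha*, numbered 122 in PEP-WT and 65 in PEP-619WW (0.823% and 0.758%), a difference of -0.0652 points (-0.293 to 0.181). Only 11 and 10 barcodes were IgA plasma cells, and 2 in PEP-WT were ties. IgG cells were thus 82.3% of PEP-WT plasma cells (79.4 to 85.0) and 88.0% of PEP-619WW plasma cells (85.2 to 90.5), a difference of 5.73 points (1.97 to 9.41).

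The size of this difference rested on the conditions that remove other cell types. The median depth of all barcodes was 2832 UMIs in PEP-WT and 3293 in PEP-619WW, and with every barcode thinned to 2500 UMIs, leaving out shallower ones, the shares were 8.00% of 8391 and 10.9% of 5463. These were 671 and 598 members, against 628 and 552 without thinning. Thinning can remove the *Lyz2* or *Cd3e* UMIs that keep a barcode out, so these members are not a subset of the others. *Lyz2*, the lysozyme gene of myeloid cells, kept out 346 PEP-WT and 371 PEP-619WW barcodes that met every other condition, and *Cd3e*, a chain of the T cell receptor complex, kept out 58 and 68. Without both conditions the members numbered 1121 and 1096, or 7.56% and 12.8% of barcodes. Members with 3 or more UMIs of the T cell, myeloid, neutrophil, NK and pDC marker lists were then left out instead. This kept 230 and 95 members, and the order of the shares turned to 1.55% in PEP-WT and 1.11% in PEP-619WW (-0.444 points). Erythroid markers were not part of this condition. Which share of the marker UMIs came from other cells was not tested.

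The values that chose the members ranged widely, and they are a description. The median member held 59 UMIs of *Mzb1* in PEP-WT and 66.5 in PEP-619WW. For *Jchain*, which links antibody units into polymers, the medians were 112 and 126 UMIs. The IgG sum had medians of 787 and 946 UMIs, with ranges of 1 to 4575 and 2 to 3678. Just inside the *Mzb1* threshold, at 5 or 6 UMIs, lay 10 and 19 members, and just outside it, at 3 or 4 UMIs, 5 and 35 barcodes. At 10 to 14 UMIs of *Jchain* lay 17 and 37 members, against 24 and 47 barcodes at 5 to 9 UMIs.

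The heavy chain UMIs that chose the class were also a description. IgG made up 99.8% of the IgG, IgM and IgA UMIs of the median member in both libraries, and 251 and 217 members held no *Ighm* UMI at all, whereas 170 and 147 held 10 or more. Members were deep, with a median of 11197 UMIs (927 to 54313) and 2004.5 genes in PEP-WT and 13752 UMIs (601 to 68715) and 2287 genes in PEP-619WW. Immunoglobulin genes took 34.0% and 29.9% of the UMIs of the median member. Levels of other genes are therefore given per 1000000 UMIs that are not immunoglobulin (CPM), and 3' counts do not grow with transcript length.

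Plasma cell genes that the rule did not use were abundant in the members. *Xbp1* stood at 1982 CPM in PEP-WT and 1906 CPM in PEP-619WW, against 76.7 and 111 CPM in the 13493 PEP-WT and 7344 PEP-619WW barcodes under the *Mzb1* or the *Jchain* threshold, called non-plasma barcodes below. *Sdc1*, the surface protein CD138, stood at 164 and 207 CPM against 1.73 and 5.90 CPM, and *Derl3*, a factor that exports misfolded proteins, at 472 and 482 CPM against 6.37 and 15.3 CPM. *Siglech*, a marker of plasmacytoid dendritic cells, which also express *Mzb1*, had 0.5 and 0 CPM.

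A small group of members held little IgG. In 39 PEP-WT and 32 PEP-619WW members the IgG sum was under 50 UMIs. These held 580 and 642 CPM of *Ms4a1*, the B cell surface protein CD20, against 73.9 and 73.8 CPM in the other members. *Xbp1* was lower in them, at 314 and 514 CPM against 2204 and 1969 CPM, and so was *Prdm1*, at 12.2 and 30.9 CPM against 90.6 and 104 CPM. The 2 libraries differed in this group: 35 of the 39 PEP-WT members held an *Ms4a1* UMI, at a median depth of 15281 UMIs, against 14 of the 32 PEP-619WW members, at 2588 UMIs. Values that rest on this group are also given for the 589 and 520 members with at least 50.

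*Ighg2c* was the leading subclass in both genotypes. A member was assigned to the subclass with the most UMIs, and 3 PEP-WT and 2 PEP-619WW ties went to the gene first in numerical order. *Ighg2c* led in 482 of 628 PEP-WT members (76.8%, 73.2 to 80.0) and in 396 of 552 PEP-619WW members (71.7%, 67.8 to 75.5). The difference was -5.01 points (-10.0 to -0.022). Its upper end lies close to 0, and it passes 0 when only members with IgG at 80% or more of heavy chain UMIs are counted (-4.84, -9.91 to 0.230).

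*Ighg2b* led in more PEP-619WW members. It led in 84 PEP-WT members (13.4%, 10.8 to 16.3) and in 104 PEP-619WW members (18.8%, 15.7 to 22.4), a difference of 5.46 points (1.27 to 9.71). The transcripts themselves moved less: *Ighg2b* made up 17.7% of all IgG UMIs of PEP-WT members and 18.6% of those of PEP-619WW members, a difference of 0.871 points. The median *Ighg2b*-led member held 975 UMIs of this gene in PEP-WT and 961 in PEP-619WW, and the highest held 4540 and 3058 UMIs. Thus the count of cells and the share of UMIs differ for this subclass.

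*Ighg3* and *Ighg1* were the minor subclasses, and neither share could be told apart between the libraries at this number of cells. *Ighg3*, which in mice is often made against carbohydrate antigens, led in 47 PEP-WT members (7.48%) and 31 PEP-619WW members (5.62%), a difference of -1.87 points (-4.71 to 1.02). As a share of all IgG UMIs the order turned, with 5.46% in PEP-WT and 6.27% in PEP-619WW. *Ighg1*, the subclass typical of responses with interleukin 4, led in 15 (2.39%) and 21 members (3.80%), a difference of 1.42 points (-0.582 to 3.57). In cells that they led, the medians were 600 and 1004 UMIs for *Ighg3* and 371 and 624 UMIs for *Ighg1*. The plot of subclass shares shows these values for the 2 libraries.

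**Figure D1:**
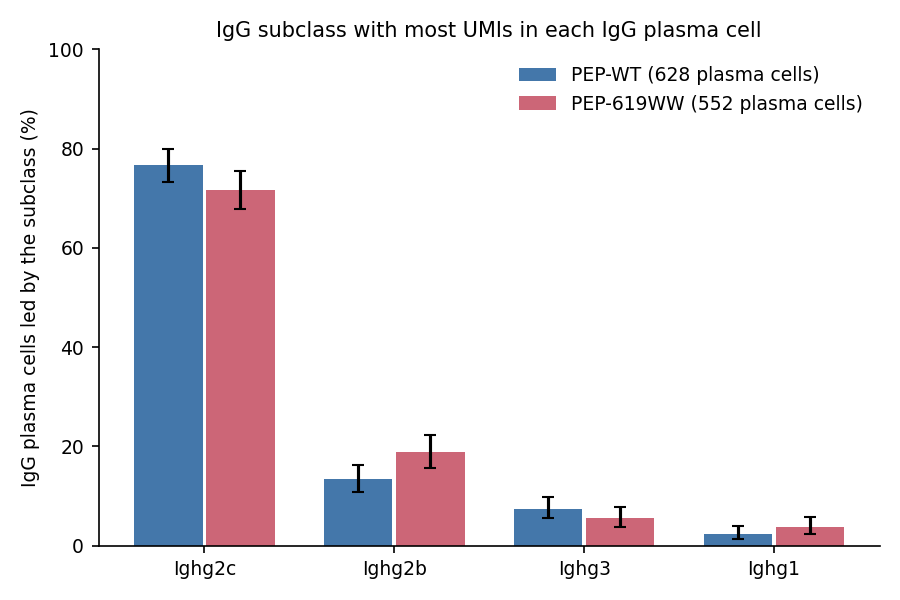
The bars give the percent of IgG plasma cells led by each subclass in the PEP-WT (628 cells) and PEP-619WW (552 cells) libraries, with exact 95% binomial intervals. *Ighg2c* leads in 76.8% and 71.7% of cells, *Ighg2b* in 13.4% and 18.8%, *Ighg3* in 7.48% and 5.62%, and *Ighg1* in 2.39% and 3.80%.

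Most members expressed 1 subclass far above the rest. The leading subclass held at least 80% of the IgG UMIs in 607 PEP-WT members (96.7%) and 526 PEP-619WW members (95.3%). In 289 PEP-WT members and 132 PEP-619WW members no second subclass was seen, and in 85 and 121 the second had 10 or more UMIs. In 21 and 24 members the second held over 20% of the IgG UMIs, and whether these barcodes hold more than 1 cell was not tested. IgG UMIs were also found where no IgG is made: of 1545 PEP-WT and 802 PEP-619WW T cell barcodes, with a *Cd3e* UMI and none of *Mzb1* or *Cd79a*, 63.1% and 82.3% held an *Ighg2c* UMI, with means of 1.13 and 2.24 UMIs and median depths of 3906 and 6350 UMIs. *Ighg2b* was seen in 14.6% and 34.4% of T cells, *Ighg3* in 9.06% and 17.1%, and *Ighg1* in 4.08% and 11.0%. A few UMIs of a second subclass are therefore not read as expression, and the number of members with 1 subclass only is not compared between libraries.

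**Figure D2:**
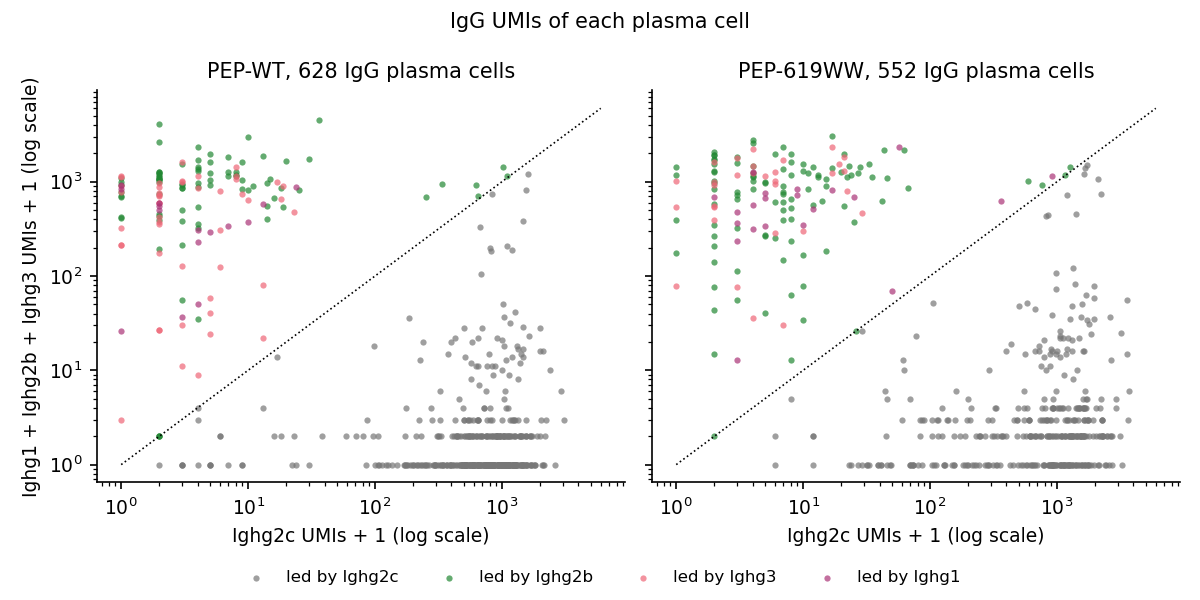
Each point is 1 IgG plasma cell, with its *Ighg2c* UMIs plus 1 on the horizontal log axis and its summed *Ighg1*, *Ighg2b* and *Ighg3* UMIs plus 1 on the vertical log axis, one panel per library and one color per leading subclass. The dotted line marks equal counts, and the 482 and 396 cells led by *Ighg2c* lie below it, but for 1 PEP-WT cell on it.

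Kappa was the light chain of nearly all members. *Igkc*, the kappa constant gene, exceeded the sum of the lambda constant genes in 595 PEP-WT members (94.7%, 92.7 to 96.4) and in 532 PEP-619WW members (96.4%, 94.5 to 97.8). The kappa-led members held medians of 2503 and 2802.5 UMIs of *Igkc*. Lambda-led members had medians of 12 and 14 UMIs of *Igkc*, and kappa-led members medians of 33 and 40.5 UMIs of the lambda constant genes. Among IgM plasma cells the kappa share was 89.3% (82.5 to 94.2) in PEP-WT and 89.2% (79.1 to 95.6) in PEP-619WW.

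The heavy chain V genes were the same leading ones in both libraries. A V gene was assigned where it held at least 3 UMIs and at least 50% of the V UMIs of its chain, which gave 519 PEP-WT and 424 PEP-619WW members a heavy V gene, over 70 and 67 genes. The same rule gave no T cell a heavy V gene. A kappa V gene was given to 1 and 2 T cells, and a lambda V gene to 1 and 1. Yet 532 and 473 kappa-led members got a lambda V gene, so lambda V genes are not described. T cells therefore do not show how many heavy and kappa V genes were given wrongly in members. *Ighv1-82* led with 61 PEP-WT members (11.7%, 9.11 to 14.8) and 55 PEP-619WW members (13.0%, 9.92 to 16.5), and *Ighv9-3* followed with 52 (10.0%) and 39 (9.20%). The differences were 1.22 points (-2.97 to 5.54) and -0.821 points (-4.57 to 3.06). With at least 20 UMIs of the V gene, a rule added after the data were seen, they were -1.27 points (-9.12 to 6.73) and -4.45 points (-11.8 to 3.01). *Ighv1-26* was held by 25 and 20 members and *Ighv8-12* by 20 and 21. With at least 20 UMIs of the V gene, *Ighv1-26* was held by 1 and 1 and *Ighv8-12* by 4 and 8 of 180 and 163 members.

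Kappa V genes were assigned in 520 PEP-WT members over 67 genes and in 438 PEP-619WW members over 72 genes, among them 5 and 3 lambda-led members. *Igkv12-46* led with 45 members in PEP-WT (8.65%, 6.38 to 11.4) and 55 in PEP-619WW (12.6%, 9.60 to 16.0), a difference of 3.90 points (0.00606 to 7.94). Its near relative *Igkv12-44* was held by 28 and 33 members. Of the 158 V genes compared over both chains, 5 had an interval that left out 0, without adjustment for their number. *Igkv12-46*, *Igkv16-104* (1.93 points, 0.373 to 3.90) and *Ighv3-6* (2.51 points, 0.339 to 5.01) were higher in PEP-619WW, and *Igkv6-17* (-2.09 points) and *Ighv10-3* (-1.16 points) lower. With at least 20 UMIs of the V gene, which was added after the data were seen, *Ighv3-6* alone of these 5 kept an interval off 0 (5.14 points, 0.574 to 10.4), whereas *Ighv1-19* (-4.44 points, -8.52 to -1.28) and *Ighv7-3* (4.41 points, 0.560 to 9.12) had one under that rule alone.

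Some chain pairs recurred in both pools of mice. Both chains were assigned in 466 PEP-WT and 387 PEP-619WW members, which fell into 328 and 273 pairs of V genes, and 262 and 222 of these pairs were held by 1 member. *Ighv9-3* with *Igkv12-46*, the sequences printed above, was the most frequent pair, with 21 PEP-WT and 19 PEP-619WW members. Of these, 16 and 13 were led by *Ighg2c*, 4 and 4 by *Ighg2b* and 1 and 2 by *Ighg3*, so this pair was seen with 3 subclasses in each library. *Ighv1-82* with *Igkv12-44* came next, with 14 and 13 members. *Ighv1-82* with *Igkv12-46* was held by 3 PEP-WT and 12 PEP-619WW members, *Ighv8-12* with *Igkv15-103* by 11 and 5, and *Ighv1-82* with *Igkv10-96* by 9 and 5. With at least 20 UMIs of each V gene these 3 pairs were held by 2 and 5, 2 and 2, and 2 and 2 members, and *Ighv9-3* with *Igkv12-46* by 11 and 11. Pairs of V genes are not clones, since the junction sequences are not in 3' counts, and the members of a pair may come from 1 mouse or several.

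The genotypes were then compared gene by gene on the summed UMIs of the members, 5611651 in PEP-WT and 6000059 in PEP-619WW without immunoglobulin genes. Of 7199 genes with at least 100 UMIs over both libraries, 17 (0.236%) were at least 2-fold higher in PEP-619WW and 36 (0.5%) at least 2-fold lower, and the median log2 ratio was 0.02. The genes named are the 12 highest and 12 lowest ratios among genes seen in at least 10% of the members of a library, with the genes of the lists.

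Metallothioneins had the highest ratios. *Mt1*, a small protein that binds zinc and copper and is induced by metals and stress, stood at 104 CPM in PEP-WT members and 443 CPM in PEP-619WW members, a log2 ratio of 2.09 (1.96 to 2.22). UMIs of *Mt1* were found in 26.8% of PEP-WT members and 57.1% of PEP-619WW members, and in 14.6% and 38.2% of T cells, which were shallower (median depths of 3906 and 6350 UMIs against 11197 and 13752). *Mt2*, its neighbor on chromosome 8, stood at 38.5 and 119 CPM, a log2 ratio of 1.63 (1.41 to 1.85). *Mt1* was also higher in the non-plasma barcodes of the PEP-619WW library, at 145 against 80.8 CPM (log2 ratio 0.85), and in its T cells, at 187 against 77.3 CPM (1.28). In IgM plasma cells its log2 ratio was 1.69 (1.36 to 2.03).

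After the metallothioneins, *Ctla4* had the highest ratio. This inhibitory receptor of activated and regulatory T cells stood at 16.6 CPM in PEP-WT and 47.8 CPM in PEP-619WW, a log2 ratio of 1.53 (1.19 to 1.88). In T cells, 22.3% of PEP-WT and 37.5% of PEP-619WW T cells held a *Ctla4* UMI, against 8.44% and 19.4% of members. *Il2rb*, a chain of the interleukin 2 and 15 receptors, stood at 10.7 and 23.2 CPM (log2 ratio 1.12, 0.669 to 1.58). *Ctla4* in IgM plasma cells had a log2 ratio of 1.55.

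The other high ratios belonged to genes at low levels. *Gfi1*, a repressor of transcription in blood cells, stood at 6.24 and 15.2 CPM (log2 ratio 1.28, 0.705 to 1.89). *Pik3r5*, a regulatory subunit of phosphoinositide 3-kinase gamma, stood at 15.5 and 34.0 CPM (1.13, 0.764 to 1.51), and *Hist3h2ba*, a histone H2B gene, at 31.4 and 66.3 CPM (1.08, 0.821 to 1.34). *Gm15513*, *Dnm3*, *Adgrl2*, *Tsix* and *Zbtb21* had log2 ratios of 1.09 to 1.33. *Tsix* overlaps *Xist* on the other strand, and the strand setting of the counting is not stated in the sources used.

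Hemoglobin transcripts had the lowest ratios. *Hbb-bs* stood at 1646 CPM in PEP-WT and 69.3 CPM in PEP-619WW members, a log2 ratio of -4.57 (-4.71 to -4.43), and *Hba-a2*, *Hba-a1* and *Hbb-bt* had -4.38, -3.70 and -3.68. Without the *Cd3e* and *Lyz2* conditions these 4 log2 ratios were -2.13, -1.97, -1.04 and -0.94. All 5 tested erythroid markers were over 2-fold lower, against 0.5% of all genes, and their summed level was 2649 CPM in PEP-WT and 155 CPM in PEP-619WW. These markers belong to red cells, and they took 1.35% of all UMIs of the PEP-WT library and 0.182% of those of the PEP-619WW library. Of T cells, 44.9% and 13.7% held a *Hbb-bs* UMI, against 53.5% and 13.8% of members, and the part of free RNA was not tested.

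Type I interferon response genes were lower in PEP-619WW members. None of the 15 tested genes of this list had a ratio above 0, 8 were at least 2-fold lower against 0.5% of all genes, and the median log2 ratio was -1.003 against 0.02 over all genes. *Isg15*, a ubiquitin-like protein that interferon induces, stood at 462 CPM in PEP-WT and 156 CPM in PEP-619WW, a log2 ratio of -1.56 (-1.67 to -1.45). *Usp18*, the protease that removes *Isg15* from proteins, stood at 30.5 and 13.2 CPM (-1.21), and *Rtp4*, a chaperone of receptors, at 21.7 and 10.0 CPM (-1.12, or -0.51 as a mean over members that weights each the same). *Zbp1*, a sensor of Z-form nucleic acids, stood at 618 and 295 CPM (-1.07, -1.15 to -0.984), and *Ifi27l2a* at 3625 and 1719 CPM (-1.08, -1.11 to -1.04). The smallest difference was that of *Stat2*, a transcription factor of the response, at 45.4 and 41.0 CPM (-0.15, -0.407 to 0.110).

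*Isg15* and *Ifi27l2a* were also lower in non-plasma barcodes and T cells. In non-plasma barcodes *Isg15* stood at 509.9 CPM in PEP-WT and 198 CPM in PEP-619WW, a log2 ratio of -1.37, and *Ifi27l2a* at 2675 and 1566 CPM (-0.77). In T cells their log2 ratios were -1.18 and -0.91. Of T cells, 53.7% and 40.5% held an *Isg15* UMI, against 54.1% and 35.5% of members. The median log2 ratio of the list in IgM plasma cells was -0.35, where *Isg15* had -0.79 (-1.03 to -0.559). *Zbp1* stood above the level of non-plasma barcodes in members, at 618 and 295 CPM against 330.0 and 254 CPM, and so did *Ly6a*, a surface protein that interferon induces, at 5246 and 3225 CPM against 1165 and 956 CPM.

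The promoter of *Isg15* is shown because it is the interferon gene with the lowest ratio. The 150 bases before its start, from the RefSeq promoter table (GRCm38.p6), hold 3 overlapping copies of the core of the interferon-stimulated response element, GAAA and, after any 2 bases, GAAA again, in capitals.
Isg15 promoter, chr4:156200819-156200968, minus strand: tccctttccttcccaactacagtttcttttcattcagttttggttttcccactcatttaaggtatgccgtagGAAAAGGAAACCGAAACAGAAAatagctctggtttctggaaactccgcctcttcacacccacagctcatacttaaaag
Of the 15 tested interferon genes, 9 matched the table, and 4 of them (*Isg15*, *Rsad2*, *Stat2* and *Bst2*) held the motif on either strand between 250 bases before and 50 bases after a start, against 3.99% of 27025 genes. *Stat2*, with the smallest difference, is among these 4. *Mt1* and *Mt2* both held TGCGCNC and TGCACNC, the forms of the metal response element searched, which 17.0% and 14.2% of genes held.

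**Figure D3:**
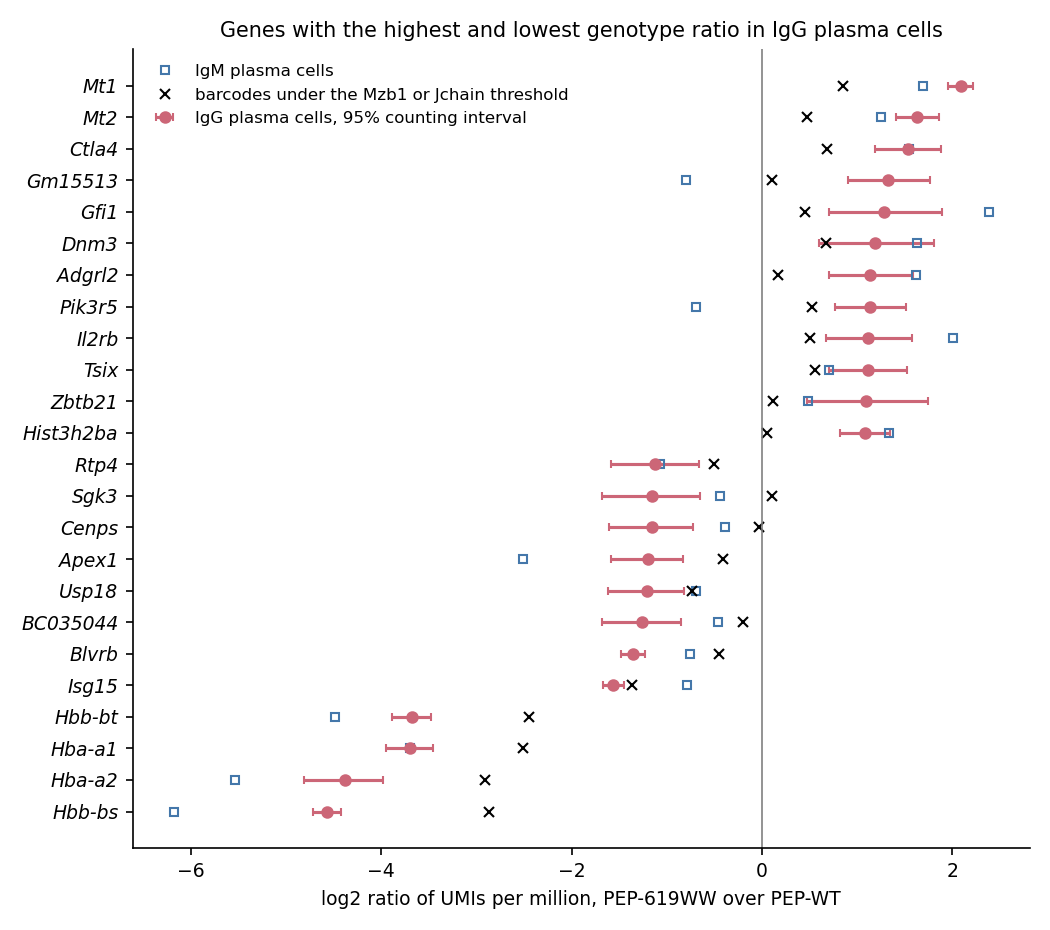
Each point is the log2 ratio of CPM (PEP-619WW over PEP-WT) of a gene in IgG plasma cells with its exact 95% counting interval, for the 12 highest and 12 lowest ratios, open squares give the same ratio in IgM plasma cells and crosses that in barcodes under the *Mzb1* or the *Jchain* threshold. *Mt1* is highest at 2.09 and *Hbb-bs* lowest at -4.57, and *Gm15513* and *Pik3r5* lie above 0 in IgG and below 0 in IgM plasma cells.

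The other genes with the lowest ratios were of mixed function. *Blvrb*, a reductase of heme breakdown that red cell precursors also make, stood at 293 and 115 CPM (log2 ratio -1.35), but a few cells held much of it: the mean over members, each weighted the same, gave -0.37. *Apex1*, a DNA repair nuclease, stood at 33.3 and 14.5 CPM (-1.20), *Sgk3*, a kinase, at 18.2 and 8.17 CPM (-1.15), and *Cenps*, a centromere protein, at 24.6 and 11.0 CPM (-1.16, or -0.49 as the mean over members). The gene *BC035044* stood at 28.3 and 11.8 CPM (-1.26).

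The genes of the secretory program had ratios near those of all genes, of which 0.236% passed 2-fold higher and 0.5% lower. Of 30 tested genes of protein folding in the endoplasmic reticulum and the unfolded protein response, 0 passed 2-fold in either direction, and their median log2 ratio was -0.05 (-0.33 to 0.46 over the genes). *Hspa5*, the main chaperone of this compartment, stood at 2147 CPM in PEP-WT and 2096 CPM in PEP-619WW (-0.03, -0.071 to 0.002), and *Herpud1*, an unfolded protein response target, had the highest ratio at 614 and 842 CPM (0.46). Of 32 genes of translocation and secretion, 0 passed 2-fold, with a median of 0.01. The 15 genes of oxidative phosphorylation had a median of -0.09.

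Regulators of the plasma cell fate were near equal or somewhat higher in PEP-619WW members. Of 8 tested, 6 had a ratio above 0, 0 passed 2-fold, and the median was 0.10. *Irf4*, a transcription factor needed to form plasma cells, stood at 115 and 162 CPM (log2 ratio 0.50, 0.353 to 0.644). *Prdm1*, the repressor that ends the B cell program, stood at 81.4 and 100.5 CPM (0.30, 0.126 to 0.482). *Xbp1* differed by -0.06 (-0.094 to -0.018).

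Surface molecules went both ways. *Ly6c2*, a Ly6 family surface protein, stood at 9025 CPM in PEP-WT and 5379 CPM in PEP-619WW members (log2 ratio -0.75, -0.767 to -0.727), whereas non-plasma barcodes had 1041 and 1197 CPM (0.20). *Ly6d* stood at 336 and 188 CPM (-0.84), and *Ly6k*, the gene of this list that passed 2-fold, at 34.6 and 11.5 CPM (-1.59, -2.01 to -1.18, or -0.85 as a mean over members). *Sdc1* had 0.34 (0.218 to 0.466). *Cxcr3*, a chemokine receptor that guides cells to inflamed tissue and a target of T-bet, stood at 57.4 and 106 CPM (0.89, 0.690 to 1.08), and it was found in 28.7% and 48.2% of members, or 7.44% and 17.2% when each member was thinned to 1700 UMIs. T cells held a *Cxcr3* UMI in 28.8% and 45.1% of barcodes, and *Cxcr3* in non-plasma barcodes had a log2 ratio of 0.57. *Tbx21*, which encodes T-bet, had 22 and 26 UMIs in all members, too few for a ratio.

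B cell genes were lower in PEP-619WW members, less so without the members with little IgG. Of 12 tested genes of the B cell program, 0 had a ratio above 0 and 1 was at least 2-fold lower, against 0.5% of all genes, *Bach2*, a repressor of the plasma cell fate, with 111 and 36 UMIs (-1.72, or -1.11 as a mean over members). The median log2 ratio of the list was -0.43, and it was -0.10 when members with under 50 IgG UMIs were left out. Of 6 tested germinal center genes, 2 were at least 2-fold lower with a median of -0.86, and the members with at least 50 IgG UMIs had a median of 0.36 over the genes that still reached 100 UMIs. *Gcsam*, a germinal center signaling protein, stood at 26.6 and 7.17 CPM (-1.89, or -1.04 as a mean over members). Of 9 genes of MHC class II antigen presentation, 0 had a ratio above 0 and the median was -0.23.

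Proliferation genes were detected in many members of both libraries. *Mki67*, made by dividing cells, stood at 419 CPM in PEP-WT and 442 CPM in PEP-619WW (log2 ratio 0.08, -0.004 to 0.158). With each member thinned to 1700 UMIs other than immunoglobulin, 28.3% of 605 and 29.7% of 516 members held a *Mki67* UMI. Without thinning the shares were 55.6% and 55.3% of members, against 24.1% and 25.7% of the shallower T cells. In the 605 and 516 members thinned to 1700 UMIs, the sum over the 26 proliferation genes had quartiles of 1, 3 and 14 UMIs in both libraries. The highest values were 45 and 47. Members thus spread widely in these genes within each library, and the median log2 ratio of the list was -0.16, with 0 genes past 2-fold.

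*Ptpn22* itself was low in IgG plasma cells, at 29.9 CPM in PEP-WT and 42.0 CPM in PEP-619WW (log2 ratio 0.49, 0.201 to 0.779), against 94.0 and 130.1 CPM in non-plasma barcodes. Of its partners, *Ptpn6*, the phosphatase SHP-1, stood at 49.2 and 24.3 CPM (-1.02, -1.31 to -0.721), or -0.45 as a mean over members, and *Csk*, the kinase bound by PEP, at 90.5 and 78.7 CPM (-0.20). No gene passed 2-fold in the lists of homing and adhesion (median 0.02), survival and death (0.01), interferon gamma and T-bet (0.00), amino acid and mTORC1 (0.05) and Fc receptors and B cell inhibitors (0.02). *Pmaip1*, which encodes the death protein NOXA, had the highest ratio among the survival genes, with 62 and 126 UMIs (0.93).

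**Figure D4:**
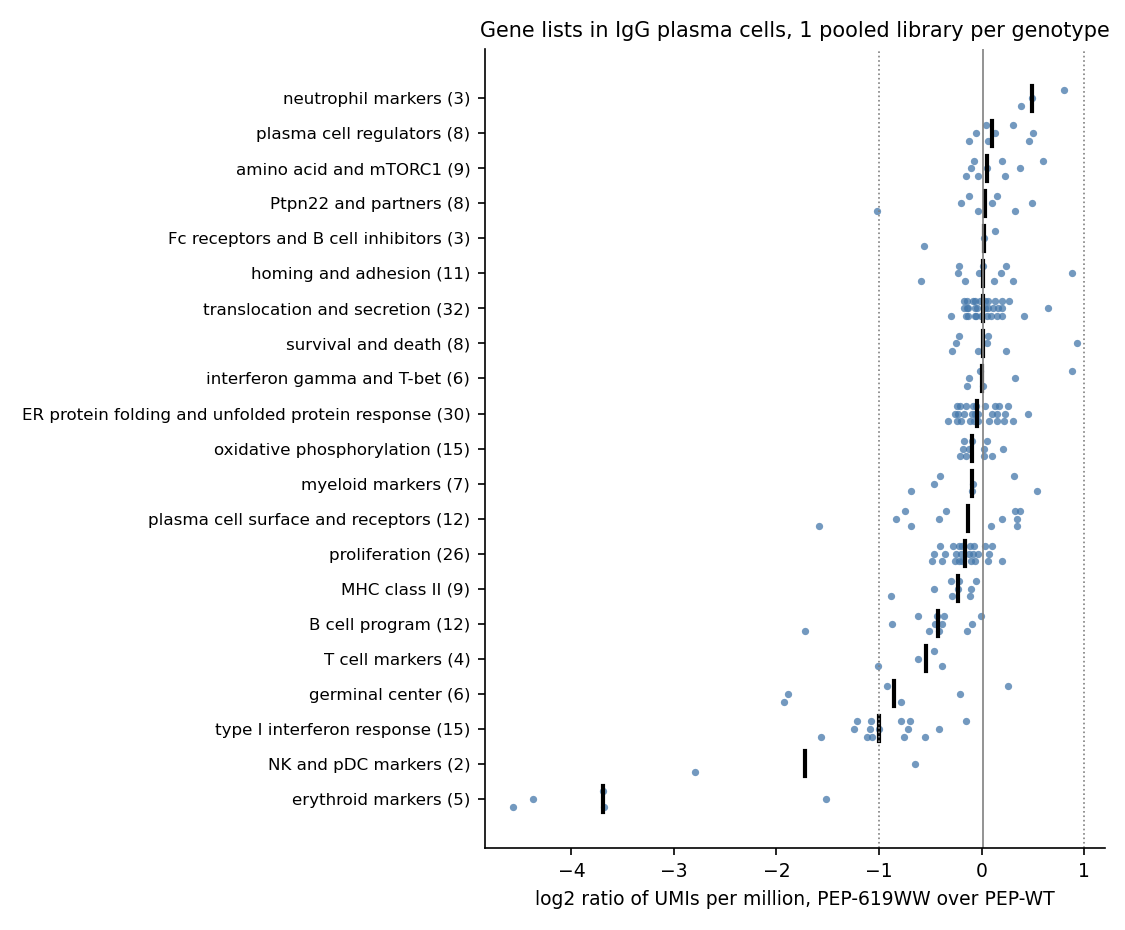
Each row is a gene list with its number of tested genes, each small point a gene of the list at its log2 ratio of CPM (PEP-619WW over PEP-WT) in IgG plasma cells, the black line the median, and the dotted lines a 2-fold difference. The erythroid list lies lowest, with a median of -3.70, the type I interferon list has a median of -1.003, and the secretory lists lie near 0.

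Markers of other cells were found in members of both libraries. The neutrophil markers summed to 135 CPM in PEP-WT members and 205 CPM in PEP-619WW members and took 0.6002% and 1.09% of the library's UMIs, and the 7 tested myeloid markers had a median log2 ratio of -0.09. T cell markers summed to 115 and 74.7 CPM and NK and pDC markers to 55.2 and 19.8 CPM, where *Gzma*, a granule protease, stood at 28.9 and 4.17 CPM. The 4 tested T cell markers had a median of -0.54, with 1 over 2-fold lower, against 0.5% of all genes. Their part in the differences above was not tested.

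IgG and IgM plasma cells of the same libraries were compared next, the one comparison with a replicate of a kind. UMIs were summed per class and library and tested with edgeR's quasi-likelihood test with the library as a block, 2 libraries and 1 residual degree of freedom, so the p-values rest on spread borrowed across genes. Of 9511 genes, 120 (1.26%) were higher in IgG and 139 (1.46%) lower at an adjusted p under 0.05, and 251 of these 259 had the same sign in both libraries. The calls came from these same libraries, so this agreement is not a replication. Over all 9511 genes, 5228 had log2 ratios of the same sign in both, where genes without UMIs in a sum were not counted. Without the library term 1 and 0 genes passed, and DESeq2 called 17 and 16. With at least 50 UMIs of the own class in every cell, 35 and 51 passed.

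*Slpi* led the abundant genes that were higher in IgG cells. *Slpi*, a secreted inhibitor of serine proteases, stood at 7361 CPM in IgG and 1428 CPM in IgM plasma cells of PEP-WT mice and at 5360 and 1946 CPM in those of PEP-619WW mice, a log2 difference of 1.93 (SE 0.13, adjusted p = 2.06e-49, edgeR). It was uneven among members: the median *Ighg2c*-led member had 2867 CPM in PEP-WT and 1579 CPM in PEP-619WW, and the highest 162839 and 117647 CPM. *Rgs3*, a regulator of G protein signaling at a low level, stood at 18.0 and 4.17 CPM in PEP-WT and 21.5 and 6.80 CPM in PEP-619WW (1.92, SE 0.41). Its counts in IgM cells were 6 and 5 UMIs. *Gm34590*, *Ppp2r5b*, *Tef*, *Tox2*, *Sgpp2* and *Wfdc17* also passed, on at most 4 UMIs per library in IgM cells, so their fitted sizes are not given.

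Of 8 regulators of the plasma cell fate, 2 were higher and 0 lower in IgG cells, and of 12 plasma cell surface genes 4 were higher and 2 lower, against 1.26% and 1.46% of all genes. *Xbp1* had a log2 difference of 0.40 (SE 0.12, adjusted p = 0.0347, edgeR), *Sdc1* 0.51 (SE 0.14) and *Ly6c2* 0.68 (SE 0.12, 9025 against 5039 CPM in PEP-WT and 5379 against 3831 CPM in PEP-619WW). *Creb3l2*, a transcription factor of the secretory pathway, had 0.66 (SE 0.15). *Bst2* and *Cd28* were the other higher surface genes (0.44 and 0.52), and *Ly6d* (-0.79) and *Tnfrsf17*, the BCMA receptor of plasma cells (-1.45, SE 0.21), were the lower ones. *Cxcr3* and *Klf2*, a factor that controls exit from lymphoid tissue, had 0.68 and 0.69. Of these 10, *Ly6c2*, *Klf2*, *Ly6d* and *Tnfrsf17* still passed with at least 50 UMIs of the own class. There *Xbp1* had 0.37 with an adjusted p of 0.354 (edgeR), *Sdc1* 0.44 and *Creb3l2* 0.62, so these sizes moved little. Of the 9 tested interferon gamma and T-bet genes, 1 was higher, *Cxcr3*.

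IgM cells held more B cell and germinal center transcripts. Of 15 B cell genes, 8 were lower in IgG cells and 0 higher, against 1.46% of all genes lower, with a median of -0.52. With at least 50 UMIs of the own class 2 of the 8 still passed, *Cd79a* and *Fcmr*, the Fc receptor for IgM, while the median was -0.58. *Cd79a*, a signaling chain of the B cell receptor, stood at 462 CPM in IgG and 653 CPM in IgM cells of PEP-WT and at 433 and 785 CPM in PEP-619WW (-0.66, SE 0.12). The germinal center genes *Mybl1* (-0.96) and *Rgs13* (-2.52) were also lower, the latter on 15 and 19 UMIs in IgG and 30 and 9 in IgM cells. With at least 50 UMIs of the own class *Mybl1* had -1.95 and no longer passed, and *Rgs13* was not among the genes tested. *Ptpn6* was lower in IgG cells too (-1.02, SE 0.17). *Txndc5*, a disulfide isomerase, stood at 844 against 1693 CPM in PEP-WT and 748 against 2350 CPM in PEP-619WW (-1.31, SE 0.12).

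The genes lowest in IgG cells included *Pdzd2* (-3.10, SE 0.41), *Atp1b1* (-2.67), a subunit of the sodium pump, and *Hdac9* (-2.28), a histone deacetylase. The sizes moved with the library: *Pdzd2* had -2.38 in PEP-WT and -3.85 in PEP-619WW, and *Atp1b1* -1.63 and -3.75. *Apoe*, a lipid carrier that macrophages also make, had -2.13 (SE 0.14), with log2 ratios of -0.81 and -3.24 in the 2 libraries. It stood at 95.7 against 168 CPM in PEP-WT and 132 against 1254 CPM in PEP-619WW. *Zcwpw1*, *Spns3*, *Gm8369*, *Otub2*, *Fam129c*, *Gm11998* and *Lipc* had -2.33 to -1.60. Of 26 proliferation genes, 6 were lower and 0 higher in IgG cells, with a median of -0.23, against 1.46% of all genes lower, and 1 of the 6, *Pclaf*, still passed with at least 50 UMIs of the own class. *Mki67* did not pass (-0.08, SE 0.12). Of the 32 translocation genes 0 passed, and in the folding list *Derl3* and *Edem2* were higher and *Txndc5* lower, of which *Txndc5* alone still passed with at least 50 UMIs of the own class.

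Markers of other cells also moved with the class. All 5 tested erythroid markers were higher in IgG cells, against 1.26% of all genes. *Hbb-bs* had a log2 difference of 1.91 (SE 0.16), with 1.74 in PEP-WT and 3.35 in PEP-619WW, where IgM cells held 5 UMIs, and *Hba-a1* had 1.89 (SE 0.18). With at least 50 UMIs of the own class these became 4.53 and 4.52, and *Car2* of this list no longer passed. Also higher were 2 of 8 myeloid (*C1qb* and *Tyrobp*), 1 of 9 T cell (*Trbc2*), 1 of 6 neutrophil (*Retnlg*) and 2 of 2 NK and pDC markers (*Gzma* and *Nkg7*), and no marker of these lists was lower. *Retnlg* had 2.80, with 4.08 in PEP-WT and 1.91 in PEP-619WW, on only 2 and 6 UMIs in IgM cells. *Gzma* had opposite signs in the libraries, 2.05 in PEP-WT and -0.39 in PEP-619WW. With at least 50 UMIs of the own class *C1qb*, *Tyrobp* and *Gzma* no longer passed. Their part in the comparison of classes was not tested.

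Members led by different IgG subclasses had few genes 2-fold apart in both libraries, most of them in those led by *Ighg1*. This was described, with no test, for members with at least 50 IgG UMIs and no tie, against the 458 PEP-WT and 373 PEP-619WW members led by *Ighg2c*. For *Ighg2b*-led members (80 and 97), 0 of 2772 genes were at least 2-fold apart in the same direction in both libraries. For *Ighg3*-led members (38 and 29), 0 genes were higher and 2 of 1215 lower, the histone genes *Hist1h2ap* and *Hist1h2bc*.

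*Ighg1*-led members (13 and 20) had 3 of 981 genes (0.306%) at least 2-fold higher and 11 (1.12%) at least 2-fold lower in both libraries. In at least 1 library 65 were higher and 42 lower. *Ly6c2* had the most UMIs of these genes. It stood at 1095 CPM in *Ighg1*-led and 10208 CPM in *Ighg2c*-led members of PEP-WT, and at 1658 and 5921 CPM in PEP-619WW, log2 ratios of -3.22 (-3.42 to -3.03) and -1.84 (-1.96 to -1.72). The median *Ighg1*-led member held 326 CPM (0 to 10287) in PEP-WT and 248 CPM (0 to 5405) in PEP-619WW, against 8655 and 4855 CPM for *Ighg2c*-led members, so the groups overlapped cell by cell.

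Several of the other lower genes rested on few UMIs in *Ighg1*-led members. *Hbb-bs* stood at 61.7 CPM in *Ighg1*-led and 1675 CPM in *Ighg2c*-led members of PEP-WT and at 5.69 and 94.9 CPM in PEP-619WW (log2 ratios of -4.76 and -4.06), on 12 and 2 UMIs. *Ifitm3*, an antiviral membrane protein, had log2 ratios of -1.76 and -2.36 in PEP-WT and PEP-619WW on 17 and 13 UMIs, and *Ifnar2*, a chain of the type I interferon receptor, -2.01 and -2.22 on 8 and 8 UMIs. *Tmem176a* (-1.47 and -2.00), *Trp53inp1* (-2.62 and -1.04), *Fosb*, *Pafah1b3*, *Epcam*, *A430035B10Rik* and *Fkbp11*, a folding enzyme of secretory cells (-1.20 and -1.003), made up the rest. Higher in *Ighg1*-led members were *Pclaf*, which acts in DNA replication (1.57 and 1.04), *Ezh2*, a histone methyltransferase of dividing cells (1.38 and 1.11), and *H2-DMa*, which loads peptides on MHC class II (1.22 and 1.06). These genes were singled out after their values were seen, and they rest on 13 and 20 cells, of which several may be daughters of 1 clone. Of all 15 PEP-WT and 21 PEP-619WW members led by *Ighg1*, 15 and 17 had at least 80% of their IgG UMIs from it. In PEP-619WW, 1 barcode held 624 UMIs of *Ighg1* and 363 of *Ighg2c*, and another 1156 and 912. A further barcode held 1376 of *Ighg1* and 944 of *Ighg3*. These were 68715, 24919 and 65814 UMIs deep and stayed in the sums. Whether they hold more than 1 cell was not tested.

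**Figure D5:**
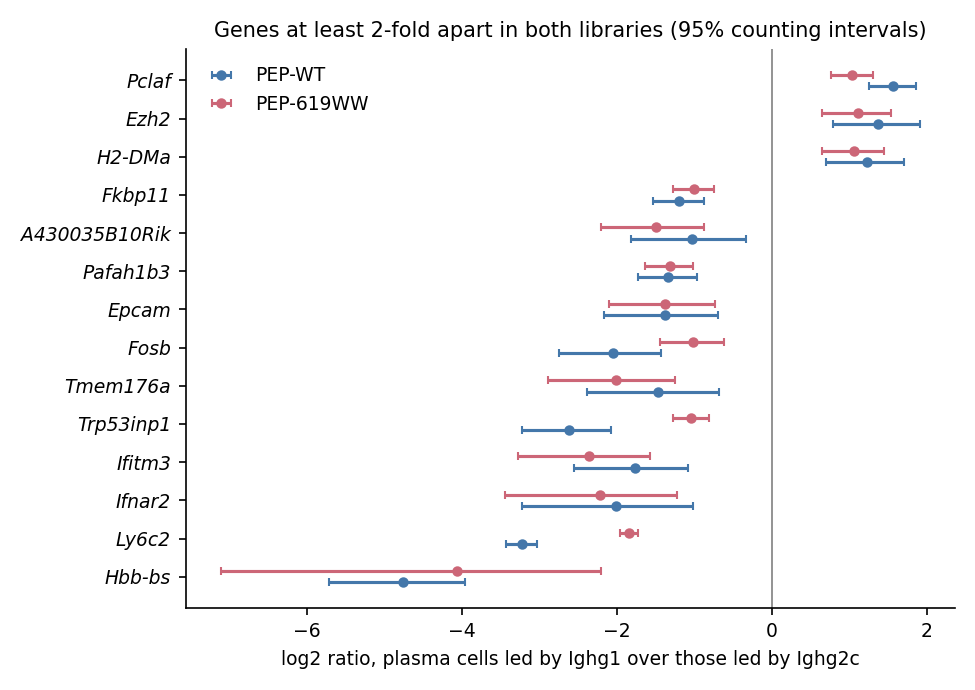
Each point is the log2 ratio of CPM in IgG plasma cells led by *Ighg1* over those led by *Ighg2c*, with its exact 95% counting interval, one color per library, for the genes at least 2-fold apart in the same direction in both libraries. *Ly6c2* lies at -3.22 in PEP-WT and -1.84 in PEP-619WW, and *Pclaf*, *Ezh2* and *H2-DMa* lie above 0.

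A second deposited run of each genotype held no IgG plasma cells. Of 9539 PEP-WT and 11029 PEP-619WW barcodes, 0 met the rule, and at 3 counts of the total this allows shares of up to 0.0314% and 0.0272%. The labels and the methods do not say how the runs relate, and they shared 38 and 19 barcodes by sequence. All values above are from the first run.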

How the data were processed

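Cell Ranger (6.0.0 per the submitters' processing notes) gave the authors UMI counts on mm10, which were deposited raw, as tables of 32285 genes by barcode in 2 runs, each with 1 pooled library per genotype. Reads that fit several genes are dropped by that pipeline. The first run was used throughout, with 77916082 (PEP-WT) and 56745578 (PEP-619WW) UMIs, as the rule for members sets it. The second run, whose barcode numbers match those in the methods of the study, holds no member. Barcodes were not filtered further, no doublet caller was run, and only the conditions on *Cd3e* and *Lyz2* limited doublets. The members, gene lists and tests were chosen with earlier results of these data known, so none of the lists is independent evidence.

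Immunoglobulin genes (427) were left out of totals and gene comparisons. Between genotypes, UMIs were summed over members and set as a ratio with an exact interval for 2 Poisson counts, with no test. A gene was compared at 100 or more UMIs over both libraries. IgG and IgM plasma cells were tested with edgeR (4.0.16, R 4.3.3; filterByExpr, TMM, quasi-likelihood, library as block) with Benjamini-Hochberg adjustment over 9511 genes. Named genes were the 12 highest and 12 lowest genotype ratios with UMIs in at least 10% of the members of a library, the 12 largest changes each way among genes past the threshold in IgG against IgM with 1 sign in both libraries, the V genes held by most members, and genes of the lists. *Ighg1*-led genes were chosen after their values were seen. Thinning drew UMIs without replacement at a fixed seed.

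Alternatives were a stricter gate (10 UMIs of *Mzb1*, 20 of *Jchain*), no *Cd3e* and *Lyz2* conditions, IgG purity of 80%, no members with 3 or more UMIs of other cell types, thinning to 2500 UMIs, the second run, minimums of 50 and 200 UMIs per gene, a mean over members, all UMIs as the total, DESeq2 (1.42.0), and, added after the data were seen, at least 50 UMIs of IgG or of the own class and at least 20 UMIs of an assigned V gene. Hinge and V exons were read from GENCODE (M21) transcripts and the promoters from RefSeq (GRCm38.p6). Calculations were made in scipy (1.17.1), pandas (2.3.3), numpy (2.4.6) and matplotlib (3.10.9) under Python (3.11.15), and the interval and edgeR calculations were tested on simulated data. Reads, flow cytometry and other experiments of the study were not analysed here. A few genes that the naming rule picks are not reported here.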

Additional observations from a re-analysis of the deposited data

Results flagged for a closer look

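A few genes had genotype ratios of opposite sign in IgG and IgM plasma cells, and the difference between the classes was not tested. *Gm15513*, an uncharacterised transcript, had a log2 ratio (PEP-619WW over PEP-WT) of 1.33 (0.902 to 1.77) in IgG plasma cells and -0.80 (-2.59 to 0.701) in IgM plasma cells, the latter on 17 and 5 UMIs. *Pik3r5*, the phosphoinositide 3-kinase subunit, had 1.13 (0.764 to 1.51) in IgG and -0.69 (-2.31 to 0.687) in IgM plasma cells, on 19 and 6 UMIs. Both IgM intervals hold 0.

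IgG UMIs were also present in the second run, where no barcode met the rule. The PEP-WT library held 6 IgG UMIs in 3 barcodes, with at most 2 in 1 barcode, and the PEP-619WW library 15 in 8 barcodes, with at most 4.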

How the results depend on the processing

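No paired analysis was possible because the labels give the genotypes only 1 library each in a run, and leaving out a library leaves no comparison. The share of IgG plasma cells in PEP-WT and PEP-619WW was 8.00% and 10.9% when thinned to 2500 UMIs (2.95 points apart), 3.89% and 5.61% under the stricter gate, 7.56% and 12.8% without the *Cd3e* and *Lyz2* conditions (5.22 points), 1.55% and 1.11% without members with UMIs of other cell types, where the order turned (-0.444 points), and 0% and 0% in the second run (0 points). The cause was not tested. The difference for *Ighg2b* was 0.871 points as a share of pooled IgG UMIs, and that for *Ighg3* 1.28 points without members with UMIs of other cell types. The other subclass differences kept their sign or moved by less than their interval. Genes at least 2-fold higher in PEP-619WW numbered 43 without the *Cd3e* and *Lyz2* conditions, 7 without members with UMIs of other cell types, 10 after thinning, 53 as a mean over members, and 55 and 8 at minimums of 50 and 200 UMIs. Those at least 2-fold lower numbered 12 after thinning, 23 in members with at least 50 IgG UMIs, and 70 and 20 at minimums of 50 and 200 UMIs. For IgG against IgM plasma cells, DESeq2 called 17 genes higher and 16 lower, the fit without the library term 1 and 0, the stricter gate 63 and 62, and cells with at least 50 UMIs of their own class 35 and 51. Of 240 alternative values for named genotype ratios, 186 moved by less than their counting interval and 54 by more, and of 205 list medians 28 moved. The minor subclasses rest on few cells, with 15 and 21 members led by *Ighg1*, and like all genotype values on 1 library per genotype.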
